A study of Mus musculus with 4 samples.

Results

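The 10 genes described here encode enzymes that consume arginine, make it, or turn its product ornithine into polyamines: *Arg1*, *Arg2*, *Nos2*, *Ass1*, *Asl*, *Odc1*, *Srm*, *Sms*, *Sat1* and *Oat*. They were taken by gene symbol from the 24346 gene names of each deposited table, and all 10 had a row in every library. The cells were *in vitro* MDSCs, immature myeloid cells grown from the whole bone marrow of female C57BL/6J mice of 6 to 8 weeks. Every culture received 40 ng/ml GM-CSF for 4 days. A pair of cultures had no further cytokine (Control) and a pair also had 5 ng/ml G-CSF (G-CSF), so GM-CSF is shared by all 4 libraries. The cultures were sequenced unsorted and hold several myeloid cell types, and fewer cells of a type and less RNA per cell cannot be told apart in such bulk libraries. The study calls the 2 cultures of each group biological replicates, and the sources used here do not say whether they came from different mice.

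Arginine can be split by arginase into urea and ornithine, or oxidised by nitric oxide synthase to nitric oxide and citrulline. Citrulline is turned back into arginine by argininosuccinate synthase and argininosuccinate lyase. Ornithine feeds the polyamines putrescine, spermidine and spermine, which growing cells need, or is passed by ornithine aminotransferase toward proline and glutamate. In MDSCs, arginase 1 and inducible nitric oxide synthase are best known for limiting T cell proliferation, and G-CSF is a growth factor of the granulocytic lineage.

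The unit of the tables was read as FPKM, fragments scaled to transcript length and to library size, so levels of different genes can be set side by side. Each library held an estimated 12.42 to 15.58 M reads. The labels' extraction note speaks of liver, a tissue rich in *Arg1*, *Ass1* and *Asl*. Of 8 hepatocyte markers, 7 were listed at 0 in every library, among them *Alb*, *Cps1* and *Otc*, and the list summed to 0.169 FPKM at most. Neutrophil markers summed to between 52980 and 77380 FPKM, and monocyte markers to between 1685 and 1986 FPKM.

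With G-CSF, *Arg1* and *Nos2* rose by more than 2-fold, *Odc1*, *Srm* and *Sms* rose by 1.34- to 1.42-fold, and *Arg2* and *Sat1* fell. *Ass1*, *Asl* and *Oat* did not pass the test. The test was limma on log2(FPKM + 0.1), with Benjamini-Hochberg adjustment over all 11946 genes tested. All 10 genes met the filter on low values, but *Nos2* met it only through the G-CSF libraries, where it is high, so it had to differ and its place in the counts that follow is no support for them. Without that filter *Nos2* had an adjusted p of 0.0291 from limma. In all, 7 of 10 passed an adjusted p of 0.05, whereas 24.2% of all genes tested did. The 5 that rose stand against 12.7% of genes rising, and the 2 that fell against 11.5% falling. *Arg1* and *Nos2* also passed a fold change of 2, as did 0.527% of genes in the upward direction and 1.42% in either. None of the 10 genes fell by more than 2-fold, whereas 0.896% of all genes did. In 9 of the 10 genes the values of the groups did not overlap, a separation seen in 66.3% of all genes tested. The median log2 fold change was 0.22 over the 10 genes and 0.0012 over all genes tested. With 2 libraries a group, an exact permutation test of a single gene cannot go below p = 0.333, so all p-values rest on the spread pooled across genes.

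**Figure D1:**
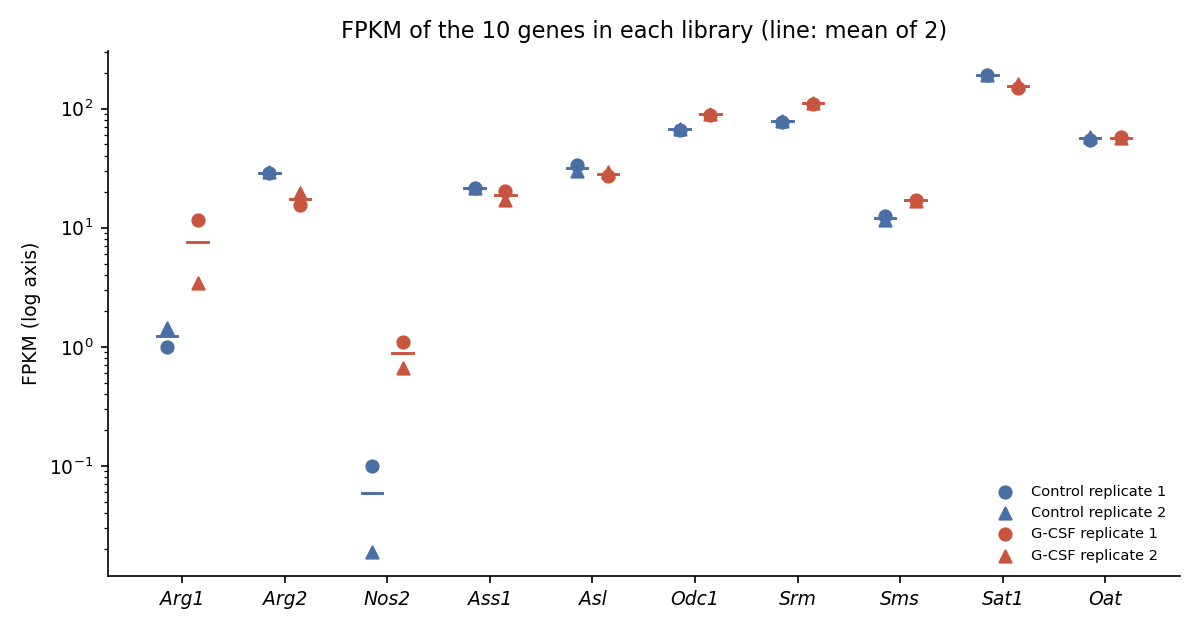
FPKM (log axis) of the 10 genes in each of the 4 libraries, with circles for replicate 1, triangles for replicate 2 and a short line for the mean of each group. *Nos2* and *Arg1* are the lowest genes and are spread widely within a group, while the values of *Odc1* and *Srm* nearly coincide within each group and do not overlap between groups.

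*Arg1*, the cytosolic arginase, lies on the minus strand of chromosome 10 of GRCm38 (24915221 to 24927484). It stood at 0.999 and 1.44 FPKM in the Control libraries, against 11.6 and 3.43 FPKM in the G-CSF libraries. Neither G-CSF value overlapped the Control range, but G-CSF replicate 1 was 3.40 times replicate 2. The log2 fold change was 2.30 (SE, the standard error, 0.512, limma adjusted p = 0.023). Only 0.134% of the genes tested differed as much between the G-CSF libraries. Among the 10770 genes with a mean of at least 1 FPKM, 8 did so, *Arg1* included. An estimated 17 and 26 reads in Control and 183 and 68 reads with G-CSF underlie these levels, a ratio of 5.75 after scaling to depth (95% exact interval 4.14 to 8.14, counting error only). Without Control replicate 1 the adjusted p was 0.0514, and with no filter on low values it was 0.0801. Without G-CSF replicate 1 the log2 fold change fell to 1.44, and without G-CSF replicate 2 it was 3.17.

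*Arg2* encodes the mitochondrial arginase and lies on the plus strand of chromosome 12 (79130777 to 79156301). It moved in the opposite direction to *Arg1*. Its FPKM was 28.6 and 29.4 in Control, against 15.6 and 19.4 with G-CSF. The Control libraries were close to each other, and both G-CSF libraries were lower. Mean levels (± SD over 2 libraries) were 29.0 ± 0.569 FPKM for Control and 17.5 ± 2.70 FPKM for G-CSF, which gave a log2 fold change of -0.73 (SE 0.103, limma adjusted p = 0.00657), or 1.66-fold lower. Leaving out any single library, the log2 fold change stayed between -0.89 and -0.58, and *Arg2* passed in all 4 fits. Of the 75-base windows of *Arg2*, 17.9% also occur in *Vti1b* or Gm48780, which overlap it on the opposite strand. The strand setting of the authors' quantification is not given in the sources used here, so reads in that overlap cannot be assigned with certainty. *Vti1b* stood at 53.6 and 56.3 FPKM in Control, against 49.7 and 48.8 FPKM with G-CSF.

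The rise of *Arg1* and the fall of *Arg2* left the summed arginase FPKM at 29.6 and 30.9 in Control, against 27.2 and 22.8 with G-CSF. The sum was thus lower in both G-CSF libraries, although *Arg1* had risen. *Arg1* made up 3.37% and 4.68% of the sum in Control, against a mean of 28.9% ± 19.6 (SD, n = 2) with G-CSF, where replicate 1 held 42.7%. *Arg2* was therefore the more abundant arginase mRNA in every library. Measured as a percentile of the genes tested, the mean of *Arg1* stood above 11.3% of genes in Control and above 38.3% with G-CSF. The mean of *Arg2* stood above 73.8% in Control and above 60.5% with G-CSF.

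**Figure D2:**
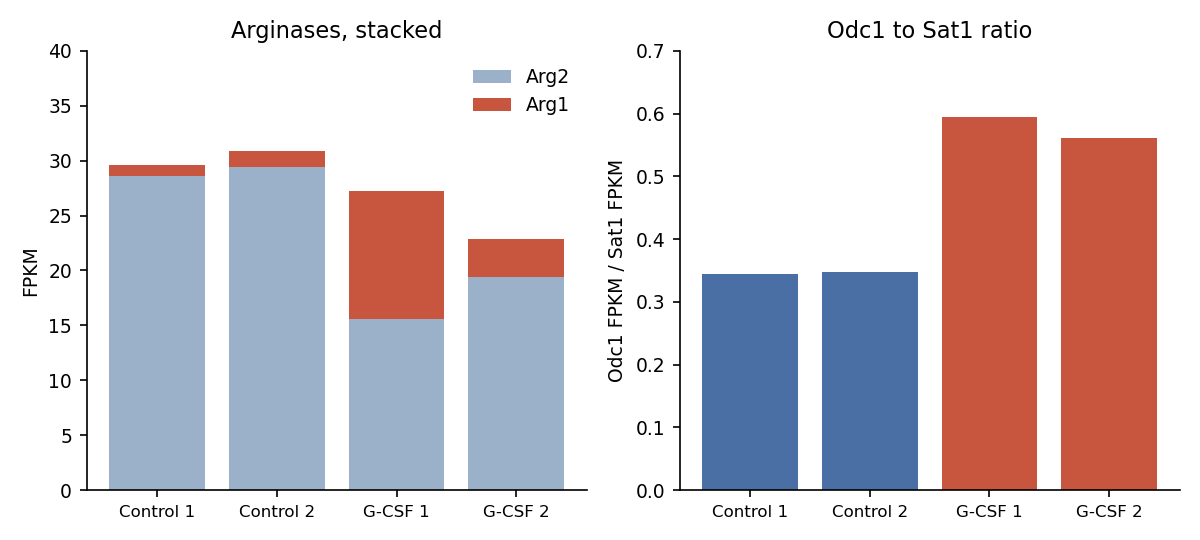
Left, FPKM of *Arg2* and *Arg1* stacked for each library, and right, the ratio of *Odc1* FPKM to *Sat1* FPKM in each library. The stack is 29.6 and 30.9 FPKM in Control, against 27.2 and 22.8 FPKM with G-CSF, with the largest *Arg1* part in G-CSF replicate 1, and the ratio is 0.345 and 0.348 in Control, against 0.594 and 0.561 with G-CSF.

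*Nos2*, the inducible nitric oxide synthase, lies on the plus strand of chromosome 11 (78920787 to 78960254). It was the lowest of the 10 genes in every library, at 0.099 and 0.019 FPKM in Control, against 1.10 and 0.660 FPKM with G-CSF. Both G-CSF values were far above both Control values, yet in absolute terms they stayed near 1 FPKM. The log2 fold change was 2.64 (SE 0.382, limma adjusted p = 0.00713). It rests on an estimated 5 and 1 reads in Control, against 49 and 37 with G-CSF, a ratio of 14.1 after scaling to depth (95% exact interval 6.22 to 39.5, counting error only). Because the Control values are so low, the size of the change depends on the pseudocount: the log2 fold change was 0.82, below a fold change of 2, with a pseudocount of 1 FPKM and 3.94 with 0.01 FPKM, and *Nos2* passed an adjusted p of 0.05 with either. *Arg2* FPKM was 289 and 1550 times that of *Nos2* in Control, against 14.1 and 29.4 times with G-CSF.

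The pattern of *Nos2* over the 4 libraries was nearest to those of *Stfa1*, *Stfa2* and BC100530, genes of the stefin A family of cysteine protease inhibitors, whose near-identical copies make single values uncertain. Likeness was measured as the Euclidean distance between log2(FPKM + 0.1) values centred on each gene's mean. The distances were 0.56, 0.61 and 0.68, and a gene with the same level in all 4 libraries would stand at 2.73. The size of the *Nos2* change is set by the pseudocount, so these neighbours hold for 0.1 FPKM, the one pseudocount at which distances were computed. The pattern of *Arg1* had no neighbour as near: *Xlr4a*, *Mylpf* and *Mdfi* stood at distances of 1.08, 1.09 and 1.13. These 3 genes had between 2 and 7 estimated reads in the Control libraries. Like *Nos2*, they met the filter only through the G-CSF libraries, so they had to be higher there. Their likeness to a gene that rose is therefore no support. With 4 libraries, such distances are only a description.

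The genes that remake arginine from citrulline were lower with G-CSF in both libraries without passing the test. *Asl*, argininosuccinate lyase, lies on the minus strand of chromosome 5 (130011258 to 130029247) and stood at 33.9 and 29.9 FPKM in Control, against 27.2 and 29.6 FPKM with G-CSF. The groups lay next to each other, with a gap smaller than the spread within either, and the log2 fold change was -0.17 (SE 0.0781, limma adjusted p = 0.168). *Ass1*, argininosuccinate synthase, lies on the plus strand of chromosome 2 (31470207 to 31520672). It stood at 21.7 and 21.6 FPKM in Control, against 20.4 and 17.0 FPKM with G-CSF, with a log2 fold change of -0.22 (SE 0.0906, limma adjusted p = 0.129). Without G-CSF replicate 1, the log2 fold change was -0.35 and *Ass1* passed (adjusted p = 0.0349).

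The value of *Ass1* is uncertain, because a copy of its mRNA sits elsewhere in the genome. Gm5424, annotated as a processed pseudogene on the plus strand of chromosome 10 (62071123 to 62072362), was looked at after its values had been seen. It stood at 308 and 320 FPKM in Control, against 261.4 and 270.5 FPKM with G-CSF. Gm5424 thus carried most of the FPKM of the pair, and *Ass1* held 5.92% to 7.23% of it in each library. Of the 1162 windows of 75 bases, the read length, in the *Ass1* coding sequence, 65.1% occur unchanged in Gm5424. The longest run common to both is 398 bases. Gm5424 fell by 0.24 on the log2 scale (SE 0.0451, limma adjusted p = 0.0142), but the adjusted p was 0.0548 without Control replicate 2 and 0.063 without G-CSF replicate 1. With both values added, the sum was 330 and 342 FPKM in Control, against 282 and 288 FPKM with G-CSF, and its log2 fold change was -0.24 (SE 0.0435, adjusted p = 0.0134). Whether the reads came from *Ass1* or from Gm5424 was not tested.

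The genes that build polyamines rose together and with little spread. *Odc1*, ornithine decarboxylase, makes putrescine from ornithine in the rate-limiting step of the pathway and lies on the plus strand of chromosome 12 (17544794 to 17551505). It stood at 66.5 and 67.1 FPKM in Control, against 88.6 and 90.1 FPKM with G-CSF. The replicates nearly coincided, both G-CSF values lay above both Control values, and the log2 fold change was 0.42 (SE 0.0425, limma adjusted p = 0.00347). *Srm*, spermidine synthase, on the plus strand of chromosome 4 (148591503 to 148594993), had 77.4 and 78.8 FPKM in Control, against 110 and 112 FPKM with G-CSF. Its log2 fold change of 0.51 (SE 0.0426, adjusted p = 0.00221) had the smallest p of the 10 genes, and 0.486% of all genes tested had a smaller one. *Sms*, spermine synthase, on the minus strand of chromosome X (157443855 to 157492287), had 12.5 and 11.7 FPKM in Control, against 17.1 and 16.9 FPKM with G-CSF. It rose by 0.49 on the log2 scale (SE 0.0688, adjusted p = 0.00675). Leaving out any single library, the log2 fold changes stayed between 0.41 and 0.43 for *Odc1*, between 0.49 and 0.52 for *Srm* and between 0.44 and 0.54 for *Sms*, and each gene passed in all 4 fits.

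The summed FPKM of *Odc1*, *Srm* and *Sms* was 156 and 158 in Control, against 215 and 219 with G-CSF. The ratio of *Srm* to *Sms* was 6.18 and 6.74 in Control, against 6.40 and 6.65 with G-CSF, so the G-CSF values lay within the Control range. Some reads of these genes may fit other loci: 16.6% of the 75-base windows of *Odc1* and 16.9% of those of *Sms* occur in other annotated genes, among them Gm17709 and Sms-ps, while none of the windows of *Srm* does.

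*Sat1*, spermidine/spermine N1-acetyltransferase, marks polyamines for breakdown and export and lies on the minus strand of chromosome X (155213132 to 155216449). By the values listed under the 10 symbols, it was the highest in every library. The sum of *Ass1* and Gm5424 was higher still, at 330 and 342 FPKM in Control, against 282 and 288 FPKM with G-CSF. *Sat1* moved opposite to the enzymes of synthesis. It stood at 192.7 and 193 FPKM in Control, against 149 and 161 FPKM with G-CSF. Both G-CSF values were lower than both Control values, with a log2 fold change of -0.32 (SE 0.0497, limma adjusted p = 0.00874), or 1.25-fold lower. It passed with each library left out, with log2 fold changes between -0.37 and -0.26. The ratio of *Odc1* to *Sat1* FPKM was 0.345 and 0.348 in Control, against 0.594 and 0.561 with G-CSF. *Sat1* held 39.4% and 39.3% of the summed FPKM of the 10 genes in Control, against 29.9% and 31.7% with G-CSF. That sum, which leaves out Gm5424, was 489 and 491 in Control, against 498 and 506 with G-CSF.

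The promoter sequences given here are those of the polyamine genes that moved and for which a RefSeq sequence was at hand, 2 that rose (*Odc1*, *Sms*) and 1 that fell (*Sat1*). They were cut to the bases before the start of the gene in both RefSeq and GENCODE (GRCm38.p6; chr12:17544623-17544793 plus strand, chrX:157492288-157492537 minus strand and chrX:155216450-155216699 minus strand), with a CACGTG match, the E-box bound by MYC and MAX, in capitals:
Odc1: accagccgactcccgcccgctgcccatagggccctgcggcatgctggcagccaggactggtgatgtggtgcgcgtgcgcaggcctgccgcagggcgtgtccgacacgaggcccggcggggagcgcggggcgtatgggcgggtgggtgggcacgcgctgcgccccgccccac
Sms: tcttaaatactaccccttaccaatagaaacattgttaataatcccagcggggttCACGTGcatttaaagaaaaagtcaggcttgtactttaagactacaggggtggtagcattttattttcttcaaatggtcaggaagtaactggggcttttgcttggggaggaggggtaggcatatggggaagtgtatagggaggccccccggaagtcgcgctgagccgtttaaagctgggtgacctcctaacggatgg
Sat1: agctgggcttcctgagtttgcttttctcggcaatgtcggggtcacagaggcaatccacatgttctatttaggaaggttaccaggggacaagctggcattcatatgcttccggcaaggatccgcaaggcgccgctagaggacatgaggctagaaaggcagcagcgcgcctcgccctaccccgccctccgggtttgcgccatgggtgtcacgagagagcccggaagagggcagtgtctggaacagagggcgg
Promoters were at hand for 5 of the 10 genes, *Ass1*, *Oat*, *Odc1*, *Sat1* and *Sms*, with 2 starts for *Sms*. In the 250 bases before each RefSeq start, both strands were searched for CACGTG, TTCNNNGAA (a STAT site), TTGCNNAA (a C/EBP site) and the NF-kB consensus, whose matches did not overlap. CACGTG occurred in *Sms* (from position -196) and in *Ass1* (from position -36), and in 6.02% of 32851 promoter sequences of this length. The other motifs, present in 7.02%, 9.56% and 0.140% of those promoters, were not found in the 5 genes. A match of letters is not evidence of binding.

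*Oat*, ornithine aminotransferase, which leads ornithine toward proline, lies on the minus strand of chromosome 7 (132557478 to 132576398). It was the gene with the smallest difference, at 54.8 and 57.5 FPKM in Control, against 57.9 and 56.3 FPKM with G-CSF. The groups overlapped, and the log2 fold change of 0.02 (SE 0.0487, limma adjusted p = 0.742) was -0.01 without Control replicate 1. The ratio of *Odc1* to *Oat* FPKM was 1.21 and 1.17 in Control, against 1.53 and 1.60 with G-CSF.

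**Figure D3:**
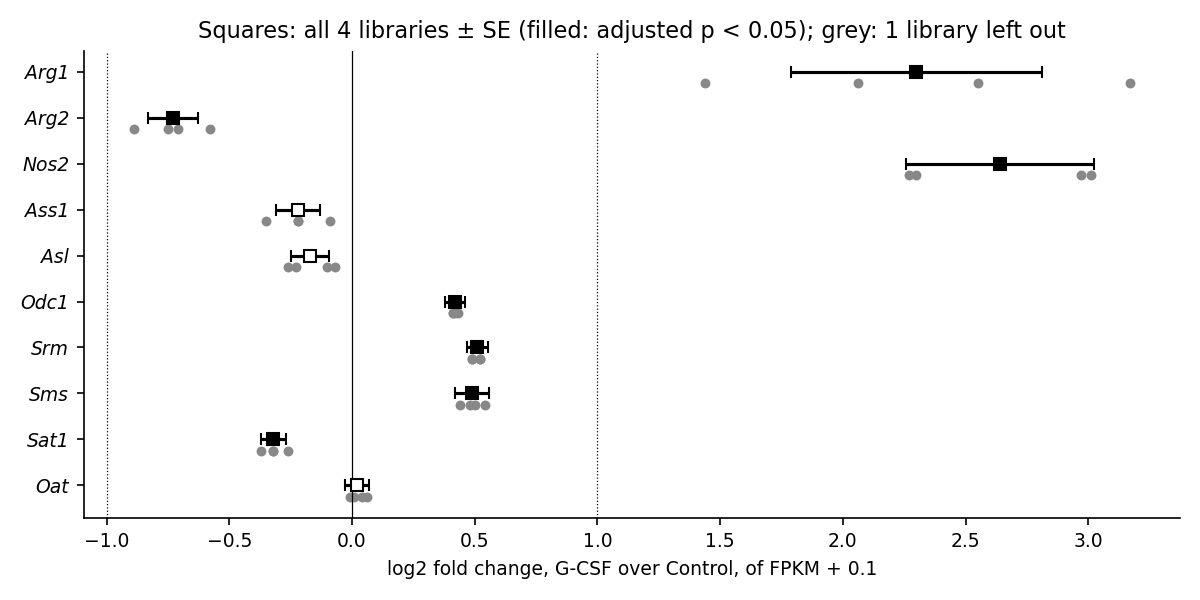
Log2 fold change of FPKM + 0.1, G-CSF over Control, for the 10 genes, with squares for the fit of all 4 libraries (bars, standard error; filled where the adjusted p is under 0.05), grey points for the fits with 1 library left out and dotted lines at a fold change of 2. *Arg1* ranges from 1.44 to 3.17 when libraries are left out, whereas *Odc1* stays between 0.41 and 0.43.

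In order of listed level, with Gm5424 not added to *Ass1*, the genes fell in the same sequence at the top in every library. *Sat1* stood above *Srm*, *Odc1* and *Oat*, and *Arg1* and *Nos2* were the lowest. In the middle the order changed. In Control it was *Asl*, *Arg2*, *Ass1* and *Sms* in both libraries, with *Asl* and *Arg2* nearly level in replicate 2. With G-CSF, *Arg2*, *Ass1* and *Sms* lay between 15.6 and 20.4 FPKM with overlapping values, and their order differed between the libraries.

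The other genes of these pathways were followed in 10 lists with 82 genes, of which 67 were tested. An adjusted p under 0.05 was reached by 21 genes that were higher with G-CSF and 6 that were lower, and 40 did not pass. Of all genes tested, 12.7% were higher, 11.5% were lower and 24.2% passed in either direction. No list gene passed at more than 2-fold, whereas 1.42% of all genes did. The counts of single lists that follow are to be read beside these shares, and no list was tested as a set. The median log2 fold change of the 67 genes was 0.11. Of the 9 genes for the transport of arginine and ornithine, 7 were tested and 2 rose. *Slc7a1*, the main carrier of cationic amino acids in many cells, had 16.3 and 14.9 FPKM in Control, against 22.2 and 20.5 FPKM with G-CSF (log2 fold change 0.45, SE 0.0747, limma adjusted p = 0.0103). *Slc7a6*, an exchanger of cationic for neutral amino acids, rose by 0.31 (SE 0.0704, adjusted p = 0.0255). Of the urea cycle steps outside the 10 genes, *Cps1* and *Otc* were listed at 0 in every library and *Nags* was below the filter, so none was tested.

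Of the other nitric oxide synthases and the genes of tetrahydrobiopterin supply, 6 were tested, of which 2 rose and 2 fell. Tetrahydrobiopterin, a cofactor of nitric oxide synthases, is made from GTP by the products of *Gch1*, *Pts* and *Spr*. *Gch1*, which encodes the rate-limiting GTP cyclohydrolase, was at 10.3 and 9.98 FPKM in Control, against 7.48 and 6.46 FPKM with G-CSF (log2 fold change -0.54, SE 0.0977, limma adjusted p = 0.0128). *Gchfr*, whose product restrains that enzyme, was at 6.20 and 5.86 FPKM in Control, against 10.9 and 9.73 FPKM with G-CSF (log2 fold change 0.76, SE 0.0938, adjusted p = 0.00512). *Pts*, which acts after *Gch1* in that route, was lower by the test (-0.29, adjusted p = 0.0308). *Spr* did not pass (limma adjusted p = 0.802). *Nos1* and *Nos3* stood at 0.054 FPKM or less in each library and were not tested.

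Of the genes of protein arginine methylation and dimethylarginine breakdown, 3 of 8 tested rose and none fell. *Prmt1* (log2 fold change 0.49, adjusted p = 0.00335 from limma), *Prmt5* (0.51, adjusted p = 0.00352) and *Carm1* (0.41, adjusted p = 0.00977) encode arginine methyltransferases. *Gatm*, which uses arginine to make the creatine precursor guanidinoacetate, was the sole gene of 4 tested in the agmatine and creatine list to pass. It stood at 15.4 and 14.03 FPKM in Control, against 24.2 and 22.7 FPKM with G-CSF (log2 fold change 0.67, SE 0.0722, adjusted p = 0.00398).

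Around the polyamine enzymes, 2 of 8 genes tested rose and 1 fell. *Amd2*, an S-adenosylmethionine decarboxylase, which supplies the aminopropyl groups used by *Srm* and *Sms*, was at 44.3 and 48.7 FPKM in Control, against 61.7 and 59.5 FPKM with G-CSF (log2 fold change 0.38, SE 0.0599, limma adjusted p = 0.00867). Its value cannot be separated from that of *Amd1*, listed at 0.040 FPKM or less, because 79.2% of the 75-base windows of *Amd2* occur in other genes, *Amd1* among them. *Smox*, spermine oxidase, fell from 26.8 and 29.7 FPKM to 21.8 and 20.6 FPKM (log2 fold change -0.41, SE 0.0709, adjusted p = 0.0114). *Paox*, which oxidises the acetylated polyamines that *Sat1* makes, was higher by 0.51 (SE 0.122, adjusted p = 0.0281). *Eif5a*, whose protein carries the spermidine-derived residue hypusine, was at 966 and 989 FPKM in Control, against 1231 and 1225 FPKM with G-CSF (log2 fold change 0.33, SE 0.0483, adjusted p = 0.00732), while the other 3 genes of the hypusine list did not pass. In the methionine salvage list, 4 of 7 genes rose and none fell. *Mat2a*, which makes S-adenosylmethionine, rose by 0.32 (limma adjusted p = 0.00599). The other 3 act in salvage itself, which recycles the by-product of *Srm* and *Sms*. *Mtap* rose by 0.28 (adjusted p = 0.0213), *Mri1* by 0.37 (adjusted p = 0.0295) and *Adi1* by 0.29 (adjusted p = 0.0326). In the proline list 3 of 8 genes rose and none fell, with *Got2* higher by 0.28 (adjusted p = 0.00816) and *Aldh18a1* by 0.34 (adjusted p = 0.0116).

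**Figure D4:**
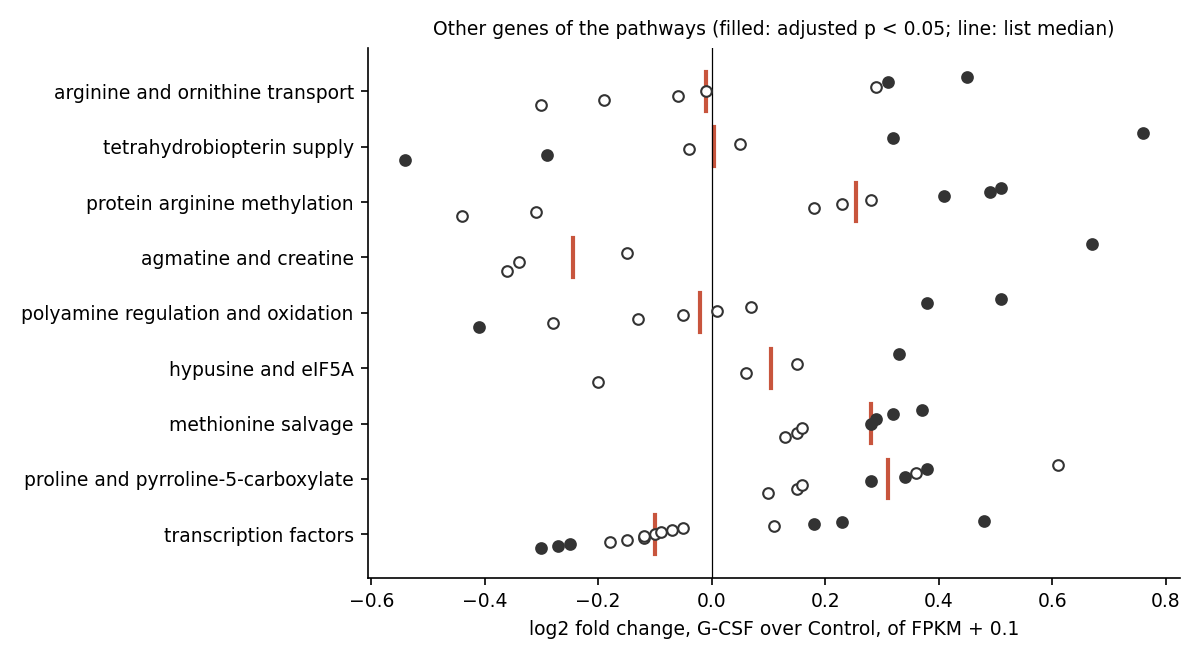
Log2 fold change of FPKM + 0.1, G-CSF over Control, of the 67 genes tested in the lists, with filled points for an adjusted p under 0.05 and a vertical line for the median of each list. The medians are highest for proline (0.31) and methionine salvage (0.28) and lowest for agmatine and creatine (-0.24), and no point lies beyond a fold change of 2.

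Of 15 transcription factors known to act at *Arg1*, *Nos2*, *Odc1* or *Srm*, 3 rose and 3 fell. *Myc*, a known activator of *Odc1* and *Srm*, was at 54.7 and 52.3 FPKM in Control, against 79.1 and 70.1 FPKM with G-CSF (log2 fold change 0.48, SE 0.0669, limma adjusted p = 0.00667). *Pparg* rose by 0.23 (adjusted p = 0.0295) and *Hif1a* by 0.18 (adjusted p = 0.0421). *Cebpb* and *Stat6*, which act at *Arg1*, fell by 0.30 (adjusted p = 0.0242) and 0.25 (adjusted p = 0.0141) on the log2 scale. *Hif1a* was named after its values were seen. Of the genes named here as passing in these lists, *Slc7a6*, *Pts*, *Paox*, *Mtap*, *Mri1*, *Adi1*, *Pparg*, *Hif1a*, *Cebpb* and *Stat6* lost the call in at least 1 of 12 alternatives tried, and the others passed in all 12. Some reads may fit other loci for *Carm1*, *Got2*, *Cebpb* and *Paox*, which share 15.5% to 25.6% of their 75-base windows with other annotated genes.

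Markers of several cell types moved with the condition, and their part in the changes of the 10 genes was not tested. The counts of markers that follow are to be read beside the 24.2% of all genes tested that passed. Of 10 neutrophil markers, 5 fell and 3 rose, and their sum was lower in both G-CSF libraries than in either Control library. *S100a8* and *S100a9* carried most of that sum, at 35613 and 31959 FPKM in Control replicate 1. *S100a8* was lower with G-CSF without passing (limma adjusted p = 0.0855). Of 6 monocyte markers 3 fell, *Csf1r*, *Itgam* and *Fcgr1*. *Ly6c2*, *Ccr2* and *Cx3cr1* did not pass (limma adjusted p = 0.146, 0.451 and 0.188). By flow cytometry, the study reports a higher share of monocytic MDSCs and a lower share of polymorphonuclear MDSCs with G-CSF. The secondary granule gene *Camp* was at 818 and 757 FPKM in Control, against 248 and 201 FPKM with G-CSF (log2 fold change -1.81, adjusted p = 0.000441 from limma). The primary granule gene *Mpo* was at 148 and 133 FPKM in Control, against 399 and 404 FPKM with G-CSF (log2 fold change 1.52, adjusted p = 0.000121). Summed markers of dendritic cells were 583 and 486 FPKM in Control, against 306 and 240 FPKM with G-CSF (4 of 6 fell). Those of mast cells and basophils were 129 and 131 FPKM in Control, against 81.4 and 90.0 FPKM with G-CSF (4 of 6 fell). Macrophage markers summed to 3822 and 4802 FPKM in Control, against 3155 and 3935 FPKM with G-CSF (4 of 7 tested fell). Eosinophil markers summed to 379 and 517 FPKM in Control, against 323 and 288 FPKM with G-CSF (2 of 5 tested fell). Between the G-CSF libraries, the dendritic cell and eosinophil sums were higher in replicate 1, which had the most *Arg1*. The macrophage, mast cell and monocyte sums were higher in G-CSF replicate 2, and the neutrophil sums were 53060 and 52980 FPKM. Between the Control libraries, replicate 2 had more *Arg1*. There the eosinophil sum was higher in replicate 2, but the dendritic cell sum was higher in replicate 1. Such sums rest mostly on the highest genes. In G-CSF replicates 1 and 2, *Chil3* held 3031 and 3792 FPKM of the macrophage sum, and *H2-Ab1* held 229 and 182 FPKM of the dendritic cell sum. *Chil3* did not pass between the groups (limma adjusted p = 0.205). Within the macrophage, eosinophil and mast cell lists, single genes differed in direction between the G-CSF libraries. Lymphocyte markers summed to 3.53 FPKM at most (2 of 2 tested fell) and erythroid markers to 1.67 FPKM at most.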

How the data were processed

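Whole-culture mRNA of 4 libraries was sequenced in 75-base reads. The authors deposited 1 table per library with a value for each of 24346 gene names. The column was taken as FPKM from its values and from Cufflinks 2.2.1 in the submitters' processing notes, which also name TopHat2 2.0.13, Bowtie2 2.2.3, SAMtools 0.1.19 and mm10. The annotation and the strand setting are not given in the sources used here.

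The deposited FPKM values were tested with limma 3.58.1 in R 4.3.3 (trended variance) on log2(FPKM + 0.1), so fold changes of low genes are understated, with Benjamini-Hochberg adjustment over 11946 genes. Samples were grouped by their labels. A gene passed at an adjusted p under 0.05 and was also counted as changed over 2-fold at a log2 fold change beyond 1. Read depth was estimated from the steps of low FPKM values, with GENCODE M21 transcript lengths less an offset of 210 bases, as 13.38 and 14.18 M reads in Control and 12.42 and 15.58 M reads with G-CSF. Between 66.3% and 67.4% of low values then lay within 0.05 of a whole read (10.0% by chance), so the estimated reads are approximate. They served for the filter, for count intervals of *Arg1* and *Nos2* that cover counting error only, and for a limma voom fit tried as an alternative, not for the reported test. The filter asked for 10 or more estimated reads in at least 2 libraries, and for a sum of 15 or more over the libraries. Of the gene names, 23959 matched a transcript length, 649 of them by a synonym, and 1738 were left out for a missing or too short length. Replicates correlated at r = 0.9946 in each group over the genes tested. The procedure was also run on simulated data. Their noise was normal, with a spread taken from the same kind of fit, so that run cannot check the assumptions of the test.

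The 10 genes were chosen by symbol, and from each pathway list up to 4 passing genes with the smallest p were named. The genes and the lists were chosen with earlier results of these data known. The marker *Ly6g* was not used here. Some list genes and a sequence that the naming rule would include are not reported here. Alternatives were other pseudocounts, filters, scalings, limma voom on the estimated reads, a replicate block and leaving out each library.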

Additional observations from a re-analysis of the deposited data

How the results depend on the processing

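Across the alternatives, *Arg2*, *Odc1*, *Srm*, *Sms* and *Sat1* kept their direction and passed each time. *Nos2* did so too, but it met each filter on low values only through the G-CSF libraries, where it is high. Its passing in the filtered fits is therefore no support, and without a filter its adjusted p was 0.0291 from limma. *Arg1* did not pass without the filter on low values (log2 fold change 2.30, adjusted p = 0.0801 from limma) or without Control replicate 1, and its log2 fold change ranged from 1.44 to 3.17 with 1 library left out. *Ass1* passed without G-CSF replicate 1 (range -0.35 to -0.09 with 1 library left out) and with Gm5424 added, at -0.24, an alternative chosen after seeing the data. *Oat* was at -0.01 without Control replicate 1 and reached 0.06. *Nos2* was at 0.82 with a pseudocount of 1 FPKM. That pseudocount took the genes changed over 2-fold from 170 to 56. Without the filter, 1626 genes passed instead of 2889, as did 18 list genes instead of 27 and 6 of the 10 genes instead of 7. With 1 library left out, where the lone library is assumed to vary like the other group, 1551 to 1906 genes passed, 16 to 23 list genes and 6 to 8 of the 10 genes. It was 16 list genes both without Control replicate 1 and without G-CSF replicate 1. The 8 genes were reached without G-CSF replicate 1, where *Ass1* passed too. The cause of these changes was not tested.

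The groups share replicate numbers, but the labels do not say that a number marks a shared culture or mouse. The deviations of same-numbered libraries correlated at 0.2572. A fit blocked on replicate number let 4014 genes pass, 185 of them over 2-fold, with 33 list genes and 7 of the 10 genes, and no call among the 10 changed. With 2 libraries a group and few reads, the levels of *Arg1* and *Nos2* in Control are the least certain.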
